A study of Mus musculus with 8 samples.

Results

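The genes described here are 10 genes of the Notch pathway, picked from 22878 gene symbols for their levels in these same libraries: the receptors Notch1, Notch2 and Notch3, the ligand Dll1, the receptor modifier Lfng, the nuclear factor Rbpj, the ubiquitin ligases Neurl1a and Dtx1, and the targets Hes1 and Nrarp. Where a symbol had several transcripts, the transcript with the largest mean count was used. The choice turned on the opposite courses of Notch1 and Dll1 between ChILP and CLP, so the values of the 10 genes in that comparison are a description and carry no test. Polyadenylated RNA of 4 progenitor populations of C57BL/6 mouse marrow was sequenced, with 2 libraries per population and no mutation or treatment named in the labels. ChILP, the common helper-like innate lymphoid progenitor, was sorted as lineage-negative CD127+ integrin α4β7+ Kit+ cells without Flt3 or ST2. CLP, the common lymphoid progenitor, was sorted as lineage-negative CD127+ Flt3+ Sca-1+ Kit+ cells without integrin α4β7. PD-1+ cells, labelled non-LTi progenitors of innate lymphoid cells (ILCs; LTi, lymphoid tissue inducer), were the PD-1+ CCR6- part of the ChILP gate. CCR6+ cells, labelled LTi progenitors, were its PD-1- CCR6+ part. ChILP and CLP were enriched by lineage depletion, and PD-1+ and CCR6+ cells by magnetic capture of integrin α4β7. The labels give no age, sex or number of mice per library and do not say that the 2 libraries of a population came from separate mice, so p-values here rest on a spread between libraries that may be technical.

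Notch receptors are cut when a ligand of the Delta or Jagged family on a neighbouring cell binds them. The freed intracellular part enters the nucleus, joins the DNA-binding protein RBPJ and switches on targets such as Hes1, Hes5, Nrarp and Dtx1. In lymphoid progenitors Notch1 signalling is known for opening T cell fate and closing B cell fate, and Notch signals are also known to act in ILC development. A cell that carries a ligand can activate Notch in its neighbours and can also dampen the receptors in its own membrane.

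Reads on genes numbered 7685188 to 13997897 per library. The labels were checked against their markers. Of 5 CLP markers, 4 were lower in ChILP than in CLP without overlap, with summed levels of 178 to 234 RPKM (the read count scaled by transcript length and library total) in ChILP and 1340.0 to 2360.0 in CLP. All 6 ILC progenitor markers were higher in ChILP. Pdcd1, which encodes PD-1, stood at 181 and 36.3 RPKM in PD-1+ cells and at 0 and 1.10 in CCR6+ cells. Ccr6 stood at 0 and 8.11 RPKM in PD-1+ cells and at 84.2 and 23.6 in CCR6+ cells, so PD-1+ replicate 2 carried both less Pdcd1 and more Ccr6 than PD-1+ replicate 1. Marker transcripts of other cells differed between libraries. The 7 B lineage markers summed to 25.2 to 65.0 RPKM in ChILP, 160.0 to 181 in CLP, 230.0 to 263 in PD-1+ libraries and 290.0 to 315 in CCR6+ libraries, and all 7 were lower in ChILP than in CLP. The 6 T cell markers summed to 6.14 to 6.49 RPKM in ChILP, 4.85 to 5.25 in CLP, 28.6 to 47.9 in PD-1+ libraries and 52.3 to 55.0 in CCR6+ libraries. None of these 13 markers was at 0 in both libraries of any group. Erythroid markers summed to 954 to 5310.0 RPKM in ChILP, 916 to 3710.0 in CLP, 23300.0 to 27200.0 in PD-1+ libraries and 27500.0 to 32800.0 in CCR6+ libraries. Most of that sum was Hba-a1, and 4 of the 6 erythroid markers were higher in all capture libraries, Epor and Klf1 being the exceptions. Neutrophil and myeloid progenitor markers summed to 7530.0 to 13900.0 RPKM in ChILP, 6560.0 to 10200.0 in CLP, 16100.0 to 32500.0 in PD-1+ libraries and 21800.0 to 35000.0 in CCR6+ libraries. Of these 8 markers 6 were higher in all 4 capture libraries, whereas the progenitor markers Elane and Mpo were lower in all 4. All 8 were higher in replicate 2 than in replicate 1 of both PD-1+ and CCR6+ cells. S100a8, for example, had 4689 and 10080 RPKM in PD-1+ libraries and 5577 and 10460 in CCR6+ libraries. The 5 plasmacytoid and dendritic markers summed to 260.0 to 279 RPKM in ChILP, 311 to 359 in CLP, 366 to 419 in PD-1+ libraries and 480.0 to 507 in CCR6+ libraries, and 4 of them were lower in ChILP than in CLP. The 8 stromal and endothelial markers summed to 74.3 to 326 RPKM in ChILP, 194 to 281 in CLP, 33.0 to 56.9 in PD-1+ libraries and 39.2 to 53.1 in CCR6+ libraries. Col1a1, a collagen of stromal cells, set ChILP replicate 2 apart, with 176 and 0.427 RPKM in ChILP and 125 and 80.9 in CLP. The part of these markers in the levels of the 10 genes was not tested. In bulk RNA, fewer cells of a type and less RNA per cell cannot be told apart.

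RBPJ binds a short DNA core, and its occurrence was read in the 250 bases before the start of each gene (RefSeq, GRCm38.p6, a newer build than the mm9 that the submitters' processing notes name). The core searched was TGGGAA on either strand, together with its longer form GTGGGAA, which contains it. Of 32851 such windows, 21.6% held at least 1 TGGGAA, 2.77% held at least 2 and 5.42% held GTGGGAA. The table held 9 of the 10 genes; Hes1 had no entry. Of these 9, Lfng and Rbpj each held 2 cores and the other 7 held none. Windows are shown for Notch1 and Dll1, whose levels ran in opposite directions, for Lfng, the chosen gene whose window holds GTGGGAA, and for Hes5, a classical Notch target described below. Each runs from 5′ to 3′ along its gene, with cores in capitals (TTCCCA is the core on the opposite strand).
Notch1 (chr2:26503823-26504072, minus strand): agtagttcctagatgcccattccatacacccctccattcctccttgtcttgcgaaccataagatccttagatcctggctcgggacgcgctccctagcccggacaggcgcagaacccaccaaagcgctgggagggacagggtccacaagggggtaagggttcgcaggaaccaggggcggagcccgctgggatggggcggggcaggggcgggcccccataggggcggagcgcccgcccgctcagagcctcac
Dll1 (chr17:15375824-15376073, minus strand): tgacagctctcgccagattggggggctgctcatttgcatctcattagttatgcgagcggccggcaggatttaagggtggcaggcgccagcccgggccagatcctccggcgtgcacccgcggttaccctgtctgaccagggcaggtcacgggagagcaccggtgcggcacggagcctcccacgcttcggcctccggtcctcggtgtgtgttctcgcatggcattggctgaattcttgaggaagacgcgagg
Lfng (chr5:140607091-140607340, plus strand): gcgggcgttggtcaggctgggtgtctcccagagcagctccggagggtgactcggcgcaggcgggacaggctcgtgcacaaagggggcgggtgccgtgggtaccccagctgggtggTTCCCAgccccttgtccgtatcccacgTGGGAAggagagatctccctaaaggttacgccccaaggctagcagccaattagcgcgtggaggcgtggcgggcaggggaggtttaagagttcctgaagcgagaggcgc
Hes5 (chr4:154960673-154960922, plus strand): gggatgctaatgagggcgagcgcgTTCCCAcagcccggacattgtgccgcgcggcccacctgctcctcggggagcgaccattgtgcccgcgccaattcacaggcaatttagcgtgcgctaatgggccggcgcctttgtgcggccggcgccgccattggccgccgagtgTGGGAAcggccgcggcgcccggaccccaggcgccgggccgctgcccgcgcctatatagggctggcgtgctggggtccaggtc
The Lfng cores begin 135 bases (opposite strand) and 108 bases (gene strand) before the start, and those of Hes5 226 and 82 bases before it. Both Hes5 cores lie in GTGGGAA, as does 1 of those of Lfng. The Notch1 and Dll1 windows hold neither form. Dll1 has 2 windows in the table, and the start used for the one shown lies 153 bases from that of the counted transcript in GENCODE M21. The starts used for Dtx1, Rbpj, Notch3 and Lfng lie 258, 132, 38 and 21 bases away. The Dtx1 window is thus displaced by more than its length, and its lack of a core does not describe the bases before the counted transcript. A match is a description of letters and not a binding site.

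The ligand was read in ChILP and all but absent in CLP. Dll1 (NM_007865), a Delta-like ligand, had 7.83 and 18.7 RPKM in ChILP and 0 and 0.0199 RPKM in CLP. The counts behind these levels were 490 and 989 reads in ChILP and 0 and 1 read in CLP. Both ChILP libraries lay far above both CLP libraries. With 1 CLP read, the ratio of pooled read rates, ChILP over CLP, was 1160.0 (95% Clopper-Pearson counting interval 209 to 46000.0). It was 1700.0 without ChILP replicate 1, 711 without ChILP replicate 2, 701 without CLP replicate 1 and at least 155 without CLP replicate 2. PD-1+ cells had 13.2 and 4.29 RPKM of Dll1, and CCR6+ cells 21.2 and 7.41. Every library sorted from within the ChILP gate thus carried Dll1, with libraries of PD-1+ and CCR6+ cells overlapping. Mean levels were 13.3 ± 7.68 RPKM in ChILP (SD, n = 2, as for all means here), 0.00997 ± 0.0141 in CLP, 8.73 ± 6.28 in PD-1+ cells and 14.3 ± 9.76 in CCR6+ cells. In descending order CCR6+ cells stood before ChILP, PD-1+ cells and CLP, and of these steps the one to CLP alone was without overlap. Dll1 was chosen with its low level in CLP known, so this is a description.

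The receptor ran the other way. Notch1 (NM_008714), the main receptor of early T cell commitment, had 5.36 and 8.26 RPKM in ChILP and 29.1 and 40.0 RPKM in CLP. PD-1+ cells had 7.05 and 8.19 RPKM, and CCR6+ cells 11.1 and 6.72. CLP thus had the highest Notch1 in both libraries, and the 6 libraries of the other groups overlapped. The log2 fold change, ChILP over CLP, was -2.28 (SE 0.33), and -2.63 to -2.00 leaving out 1 library in turn. In ascending order, mean levels were 6.81 ± 2.05 RPKM in ChILP, 7.62 ± 0.809 in PD-1+ cells, 8.92 ± 3.10 in CCR6+ cells and 34.6 ± 7.69 in CLP. Of the neighbours in this order, CCR6+ cells and CLP alone did not overlap. Notch1 was chosen with its high level in CLP known, so this is a description. Notch1 overlaps the non-coding gene 0610009E02Rik in RefSeq, and since a strand setting is not stated, reads of the overlap cannot be told apart.

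Set against each other per kilobase, the ligand stood above the receptor in both ChILP libraries and far below it in both CLP libraries. The level of Dll1 was 1.46 and 2.26 times that of Notch1 in the ChILP libraries, and 0 and 0.000498 times in the CLP libraries. In PD-1+ cells it was 1.87 and 0.524 times, and in CCR6+ cells 1.91 and 1.10 times. PD-1+ replicate 2 was the only library of the ChILP gate with less Dll1 than Notch1. It had more Ccr6, more S100a8 and less Pdcd1 than its partner, and the part of any of these was not tested.

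**Figure D1:**
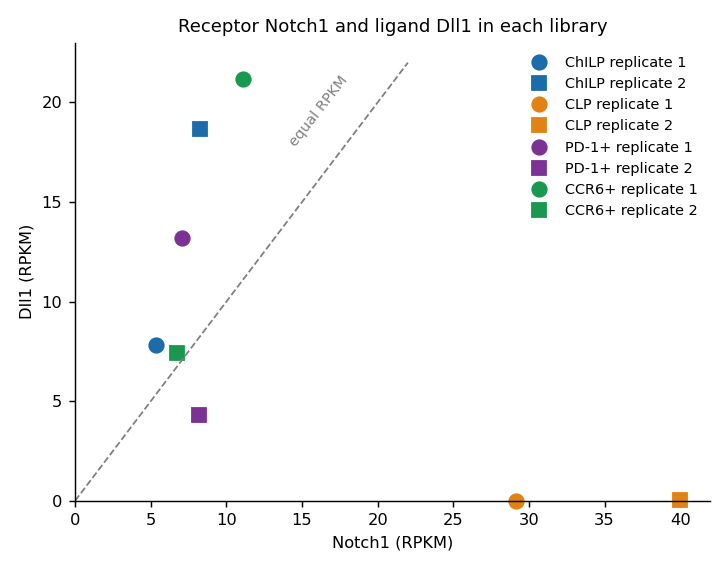
Level of the receptor Notch1 (x axis, RPKM) against that of the ligand Dll1 (y axis, RPKM), 1 point per library, with a dashed line at equal levels. The 6 ChILP, PD-1+ and CCR6+ libraries lie at 5.36 to 11.1 RPKM of Notch1 and 4.29 to 21.2 of Dll1, and both CLP libraries lie at the right on the axis (29.1 and 40.0 RPKM of Notch1, 0 and 0.0199 of Dll1).

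Notch2 (NM_010928), the receptor known for marginal zone B cells and for some myeloid and ILC fates, was not highest in CLP. It had 6.40 and 6.98 RPKM in ChILP and 8.77 and 7.73 RPKM in CLP (log2 fold change -0.25, SE 0.20). PD-1+ cells had 14.2 and 13.7 RPKM, and CCR6+ cells 17.0 and 14.3. The 4 libraries made by capture were all above the 4 made by depletion. Within a library, the level of Notch2 was 1.19 and 0.845 times that of Notch1 in ChILP, 0.301 and 0.193 times in CLP, 2.02 and 1.67 times in PD-1+ libraries and 1.53 and 2.13 times in CCR6+ cells. CLP was thus the population in which Notch1 was the leading receptor transcript in both libraries. Notch3 (NM_008716), a receptor that Notch1 signalling induces in thymocytes, was close to absent, with no read in ChILP (3 reads over the group would be 0.0112 RPKM) and 17 and 10 reads in CLP, at least 11.4-fold lower in ChILP (at least 5.22-fold without ChILP replicate 1, 6.21-fold without ChILP replicate 2, 7.04-fold without CLP replicate 1 and 18.0-fold without CLP replicate 2). PD-1+ cells had 0 and 9 reads of Notch3 and CCR6+ cells 0 and 45, and its highest level in any library was 0.389 RPKM. Notch4, the remaining receptor and not among the 10 genes, did not exceed 0.848 RPKM.

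Among the genes that tune or carry the signal, Lfng and Rbpj had overlapping levels in ChILP and CLP. Lfng (NM_008494), the Lunatic fringe glycosyltransferase that makes Notch1 more responsive to Delta ligands, had 7.43 and 9.05 RPKM in ChILP and 9.29 and 8.02 in CLP (log2 fold change -0.02, SE 0.44). In PD-1+ cells it had 11.9 and 6.95 RPKM, and in CCR6+ cells 16.6 and 7.93. Rbpj (NM_009035), the DNA-binding partner of the cleaved receptor, had 2.50 and 1.96 RPKM in ChILP and 2.29 and 2.82 in CLP (log2 fold change -0.14, SE 0.41). Rbpj had 2.86 and 2.02 RPKM in PD-1+ cells and 1.71 and 1.68 in CCR6+ cells. Its 3 listed transcripts share nearly all their reads and the mouse genome holds pseudogenes of Rbpj, so its level is uncertain.

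Neurl1a (NM_021360), a neuralized ubiquitin ligase of the family that helps Notch ligands to be taken up, was read in some populations and not in others. It had no read in either ChILP library (3 reads over the group would be 0.0214 RPKM), and 37 and 39 reads, or 0.832 and 0.641 RPKM, in CLP. It had 142 and 54 reads, or 2.35 and 0.799 RPKM, in PD-1+ cells and no read in either CCR6+ library. Levels in ChILP were at least 32.2-fold lower than in CLP (at least 14.7-fold without ChILP replicate 1 and 17.5-fold without ChILP replicate 2). PD-1+ cells are part of the ChILP gate, yet both of their libraries had reads where both ChILP libraries had none.

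**Figure D2:**
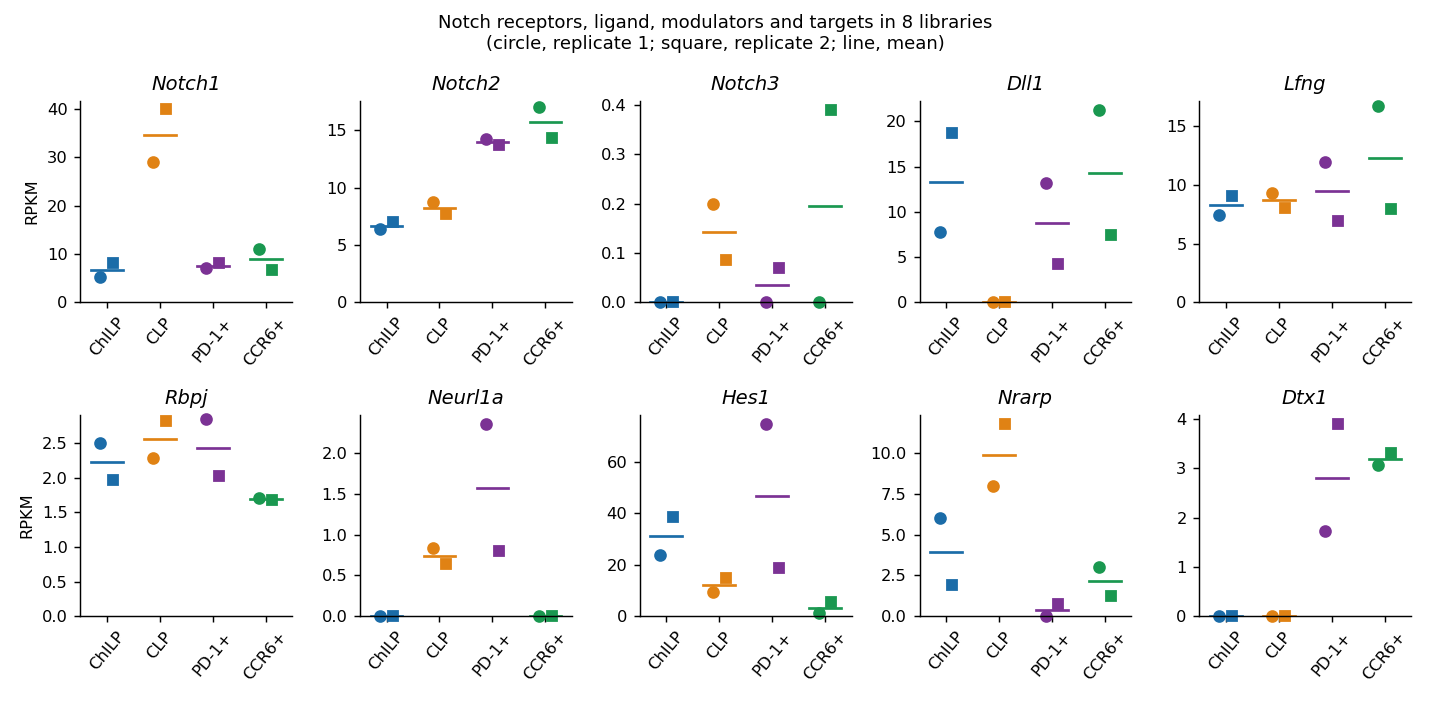
Level (y axis, RPKM) of the 10 genes in each library of the 4 populations (x axis); circles are replicate 1, squares replicate 2 and lines group means. Notch1 is highest in CLP (29.1 and 40.0 RPKM), Dll1 is at 0 and 0.0199 there, and Hes1 is highest in PD-1+ replicate 1 (74.7 RPKM).

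The targets did not move as a block between ChILP and CLP. Hes1 (NM_008235), a repressor that Notch induces in many tissues, had 24.0 and 38.8 RPKM in ChILP and 9.40 and 14.9 RPKM in CLP. ChILP thus had more Hes1 in both libraries although its Notch1 was lower (log2 fold change 1.44, SE 0.76). Nrarp (NM_025980), a target that feeds back on the Notch complex, had 6.04 and 1.89 RPKM in ChILP and 7.95 and 11.8 in CLP. Its groups did not overlap, and the log2 fold change was -1.25 (SE 1.25), -0.64 without ChILP replicate 2 and -2.31 without ChILP replicate 1. Dtx1 (NM_008052), the Deltex ligase that is a direct Notch target in T and B cells, had no read in ChILP or CLP, where 3 reads over a group would be 0.0240 and 0.0319 RPKM. In PD-1+ cells it had 1.72 and 3.89 RPKM, and in CCR6+ cells 3.07 and 3.31. Dtx1 was thus read in all 4 capture libraries and in no depletion library.

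Over the 10 genes, the libraries did not overlap for 2 that were higher in ChILP (Dll1 and Hes1; 17.0% of all 13619 tested genes were higher without overlap) and for 5 that were lower (Notch1, Notch2, Notch3, Nrarp and Neurl1a; 18.6% of all tested genes). These genes were picked on this comparison, so nothing is read from the counts. Notch3, Neurl1a and Dtx1 passed the filter on low counts through the groups in which they have reads.

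Notch2 and Dtx1 were set beside the B lineage and T cell markers, since both were higher in all 4 capture libraries than in all 4 depletion libraries. Of all tested genes, 9.05% had that arrangement. Of the 7 B lineage markers 4, and of the 6 T cell markers 4, were also higher in all capture libraries. The exceptions, Vpreb1, Igll1, Ebf1, Cd8a and Cd5, overlapped between capture and depletion libraries. Mean levels of Vpreb1, Igll1 and Ebf1 were lower in capture libraries (2.93, 4.77 and 3.34 RPKM) than in depletion libraries (7.7, 12.5 and 7.21). Those of Cd8a and Cd5 were higher in capture libraries. Cd3e, a chain of the T cell receptor complex, had 0.610 and 0 RPKM in ChILP, 0.260 and 0 in CLP, 5.99 and 6.00 in PD-1+ libraries and 7.36 and 8.93 in CCR6+ libraries. The part of these markers, and of the erythroid and myeloid ones above, in the levels of Notch2 and Dtx1 was not tested. The route of enrichment and the population cannot be told apart in this step.

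**Figure D3:**
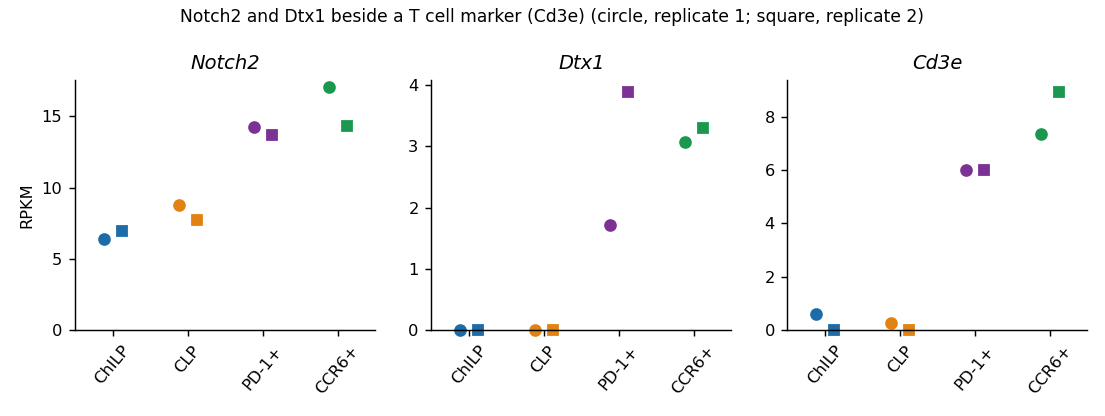
Level (y axis, RPKM) of Notch2, Dtx1 and the T cell marker Cd3e in each library (x axis); circles are replicate 1 and squares replicate 2. All 3 are higher in the PD-1+ and CCR6+ libraries, made by capture, than in the ChILP and CLP libraries, made by depletion.

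The second comparison of the study asked which genes set PD-1+ cells apart from CCR6+ cells. Hes1 showed the widest gap in level among the 10 genes. It had 74.7 and 18.7 RPKM in PD-1+ cells and 1.10 and 5.39 RPKM in CCR6+ cells, with 1576 and 441 reads against 17 and 114. Both PD-1+ libraries were above both CCR6+ libraries, and the log2 fold change was 3.73 (SE 0.84). Over all genes this did not pass edgeR's quasi-likelihood test (Benjamini-Hochberg adjusted p = 0.636, unadjusted p = 0.00215). DESeq2 called it (adjusted p = 0.000471), and its adjusted p was 0.000471 to 1 over the alternatives. The log2 fold change was 2.49 without PD-1+ replicate 1, 3.02 without CCR6+ replicate 1, 4.37 without PD-1+ replicate 2 and 5.29 without CCR6+ replicate 2. The PD-1+ library with less Hes1 was replicate 2, which also had less Pdcd1 and more S100a8. The part of either was not tested.

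Neurl1a, with no read in CCR6+ cells, was at least 51.5-fold higher in PD-1+ cells (at least 28.2-fold without PD-1+ replicate 1, 29.9-fold without CCR6+ replicate 1 and 21.6-fold without CCR6+ replicate 2). It did not pass edgeR's test (adjusted p = 0.690), and DESeq2 called it (adjusted p = 0.0049). No other alternative that kept all libraries called it. Neurl1a had reads in PD-1+ cells and CLP alone and passed the filter on low counts through them. It was also picked for its levels in these libraries, so neither p-value is independent support. Nrarp had 0 and 0.765 RPKM in PD-1+ cells and 3.02 and 1.25 in CCR6+ cells. It lay lower in both PD-1+ libraries (log2 fold change -2.46, SE 1.35, edgeR adjusted p = 0.850), opposite to Hes1. The log2 fold change was -1.49 without PD-1+ replicate 1, -1.69 without CCR6+ replicate 1 and -2.97 without CCR6+ replicate 2. Without PD-1+ replicate 2, the library that held all 32 of its PD-1+ reads, the fitted value depends on the prior count. Libraries of PD-1+ and CCR6+ cells overlapped for Notch1 and Dll1 and not for Notch2. The log2 fold change was -0.28 for Notch1 (SE 0.32, edgeR adjusted p = 0.923), -0.23 for Notch2 (SE 0.20, adjusted p = 0.894) and -0.81 for Dll1 (SE 0.68, adjusted p = 0.889). Rbpj (0.45, SE 0.42, edgeR adjusted p = 0.899), Lfng (-0.46, SE 0.44, adjusted p = 0.900) and Dtx1 (-0.22, SE 0.78, adjusted p = 0.988) did not pass the test either. Notch3, with 9 reads in PD-1+ cells and 45 in CCR6+ cells, had a log2 fold change of -2.43 (SE 2.76, edgeR adjusted p = 0.925), and 5.24 without CCR6+ replicate 2, which held all its CCR6+ reads. The sign for Notch1, Dll1 and Lfng turned without CCR6+ replicate 1, which had the higher level of each in its group (to 0.13, 0.15 and 0.18), and that for Dtx1 without PD-1+ replicate 1 (to 0.27).

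edgeR called none of the 10 genes between PD-1+ and CCR6+ cells, with adjusted p-values of 0.636 to 0.988, and it called 0% of all 13619 tested genes. At an unadjusted p under 0.05 there were 2 of the 10 genes, Hes1 and Neurl1a, and 801 of all genes; DESeq2 called the same 2 and 131 of all genes, or 0.962%. Libraries did not overlap for 3 of the 10 that were higher in PD-1+ cells (Hes1, Neurl1a and Rbpj; 19.0% of all tested genes) and for 2 that were lower (Notch2 and Nrarp; 14.2%). With 10 genes, the shares without overlap are near those of the whole table. The 10 genes were picked for their levels in these same libraries. Neurl1a passed the filter on low counts through the groups with reads, so nothing is read from these counts.

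**Figure D4:**
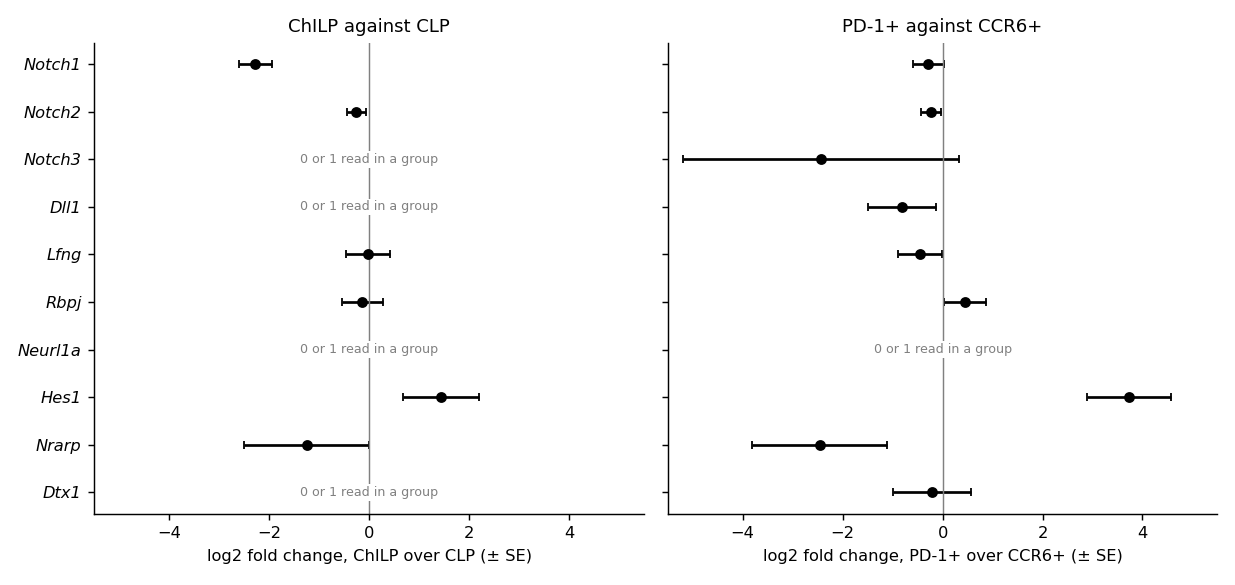
Log2 fold change from edgeR (x axis, ± SE) of each of the 10 genes (y axis), for ChILP over CLP on the left and PD-1+ over CCR6+ on the right; genes with 0 or 1 read in a group have no point. Notch1 lies at -2.28 on the left and -0.28 on the right, and Hes1 at 1.44 and 3.73.

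The rest of the pathway was read from a list of 59 further genes in 7 roles, of which 52 passed the filter on low counts. The list was written with earlier results of these data known. Gata3 and Tcf7 on it are also among the ILC progenitor markers used above to check the ChILP label. Between ChILP and CLP, edgeR called none of the 52 over all genes, against 0.0220% of the 13619 genes tested (3 genes, of 792 with an unadjusted p under 0.05); 8 of the 52 had an unadjusted p under 0.05, and DESeq2 called Bcl11b, Gata3 and Tcf7 higher and Hes6 lower in ChILP, against 1.93% of all genes. The median log2 fold change of the 52 was 0.01, beside 0.05 over all tested genes. Between PD-1+ and CCR6+ cells edgeR called none of the 52, nor any of the 13619 genes tested. At an unadjusted p under 0.05 there were 8 of the 52 and 801 of all 13619 genes. Among these 8 were Gata3, Tcf7 and Hey1, which had reads in PD-1+ cells alone and passed the filter through them. Since the list was written with earlier results known, nothing about the pathway is read from the count of 8 in either comparison. DESeq2 called Bcl11b, Gata3 and Tcf7 higher, against 0.962% of all genes called in either direction. The median log2 fold change of the 52 was 0.04 beside 0.01 over all genes. edgeR called the same 3 genes without PD-1+ replicate 2, and for ChILP over CLP without ChILP replicate 1.

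Of 7 other ligands, 4 did not pass the filter. Dll4, the ligand of the thymus, had reads in ChILP replicate 1 (1.19 RPKM), PD-1+ replicate 1 (3.37) and CCR6+ replicate 2 (1.37) and none in the other libraries. Jag2 had 0.513 and 0 RPKM in ChILP, 0.968 and 2.24 in CLP, 1.29 and 0 in PD-1+ libraries and 0.715 and 0.812 in CCR6+ libraries. Dll1 was thus the ligand with the highest level in each library outside CLP. The machinery that cuts receptors was present throughout: Adam10, the sheddase of Notch receptors, had 23.6 and 18.9 RPKM in ChILP and 22.1 and 18.2 in CLP, and Ncstn, a γ-secretase subunit, had 33.7 and 36.5 in ChILP and 28.7 and 38.1 in CLP. None of the 10 cleavage genes was called in either comparison, and their median log2 fold changes were 0.13 for ChILP over CLP and -0.25 for PD-1+ over CCR6+. Furin, the protease that first cuts the receptor, had 11.5 and 11.9 RPKM in ChILP and 4.26 and 8.35 in CLP (log2 fold change 0.96, edgeR adjusted p = 0.753). Psen2, a presenilin, had 15.4 and 17.2 RPKM in PD-1+ cells and 26.5 and 22.6 in CCR6+ cells (log2 fold change -0.65, edgeR adjusted p = 0.850). Adam17 and Adam10 also lay lower in PD-1+ cells without overlap, with log2 fold changes of -0.49 and -0.23 and edgeR adjusted p-values of 0.850 and 0.902.

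Lfng was the least abundant of the 3 fringe genes in all but 1 library. Mfng, Manic fringe, had 25.7 and 36.3 RPKM in ChILP and 48.5 and 72.2 in CLP (log2 fold change -0.89, SE 0.30, edgeR adjusted p = 0.660). Rfng, Radical fringe, had 19.4 and 20.1 RPKM in PD-1+ cells and 8.66 and 15.0 in CCR6+ cells (log2 fold change 0.68, edgeR adjusted p = 0.841). The exception was CCR6+ replicate 1, where Lfng (16.6 RPKM) exceeded Rfng. Among nuclear cofactors and ligases, Maml3, a Mastermind coactivator, had 2.63 and 6.87 RPKM in ChILP and 12.3 and 8.84 in CLP (log2 fold change -1.11, edgeR adjusted p = 0.958), and Dtx4, a Deltex relative, had 2.80 and 4.57 in ChILP and 5.59 and 10.9 in CLP (log2 fold change -1.08, edgeR adjusted p = 1).

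Hes5 and Hey1, both known as Notch targets, had reads in few of the populations. Hes5, which had a pair of RBPJ cores in the window above, had 0.559 and 0 RPKM in ChILP and 5.07 and 4.35 in CLP, and no read in any PD-1+ or CCR6+ library. The fitted log2 fold change, ChILP over CLP, was -3.98 (SE 2.28). Hes6, a HES relative known to counteract Hes1, had 74.4 and 82.9 RPKM in ChILP and 130.1 and 202 in CLP (log2 fold change -1.01, SE 0.24, edgeR adjusted p = 0.283). Notch1, Nrarp, Hes5 and Hes6 thus had their highest level of any group in CLP in both libraries. So did Myc, also listed as a target, with 234 and 309 RPKM in CLP and at most 188 in any other library. Some other listed targets went the other way. Of the 11 further target genes tested, 6 were higher and 4 lower in ChILP than in CLP without overlap (17.0% and 18.6% of all tested genes). Hes1 was also higher in ChILP. Hey1, another Notch-induced repressor, had 35 and 41 reads (1.09 and 1.14 RPKM) in PD-1+ cells and no read in any other library, at least 20.0-fold higher than in CCR6+ cells (at least 11.6-fold without CCR6+ replicate 1 and 8.37-fold without CCR6+ replicate 2). Il2ra, the IL-2 receptor α chain, lay on the other side from Hey1 and Hes1, with 0 and 0.348 RPKM in PD-1+ cells and 4.10 and 3.02 in CCR6+ cells (log2 fold change -4.34, SE 1.57, edgeR adjusted p = 0.809). Ccnd1, cyclin D1, had 6.78 and 7.86 RPKM in PD-1+ cells and 16.9 and 12.1 in CCR6+ cells (log2 fold change -1.04, SE 0.29, edgeR adjusted p = 0.697). Hes5, Hey1 and Il2ra were singled out after their values were seen, and Hes5 and Hey1 passed the filter on low counts through the group in which each is highest.

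Gata3, Tcf7 and Bcl11b, transcription factors of ILC and T cell commitment, were higher without overlap in both comparisons. Tcf7 had 58.5 and 102 RPKM in ChILP and 0.546 and 1.11 in CLP, and 238 and 45.9 in PD-1+ cells and 20.4 and 12.1 in CCR6+ cells. Their log2 fold changes for ChILP over CLP were 5.25, 6.64 and 9.16 (edgeR adjusted p = 0.0815, 0.0593 and 0.0593). Bcl11b had 3 reads in CLP, and its ratio of pooled read rates was 611 (95% counting interval 209 to 2960.0). For PD-1+ over CCR6+ cells the log2 fold changes were 3.95, 3.02 and 4.23 (edgeR adjusted p = 0.359, 0.662 and 0.443). In PD-1+ replicate 1 all 3 stood above PD-1+ replicate 2, as did Hes1. Ptcra, a Notch target of thymocytes, had no read in any library.

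**Figure D5:**
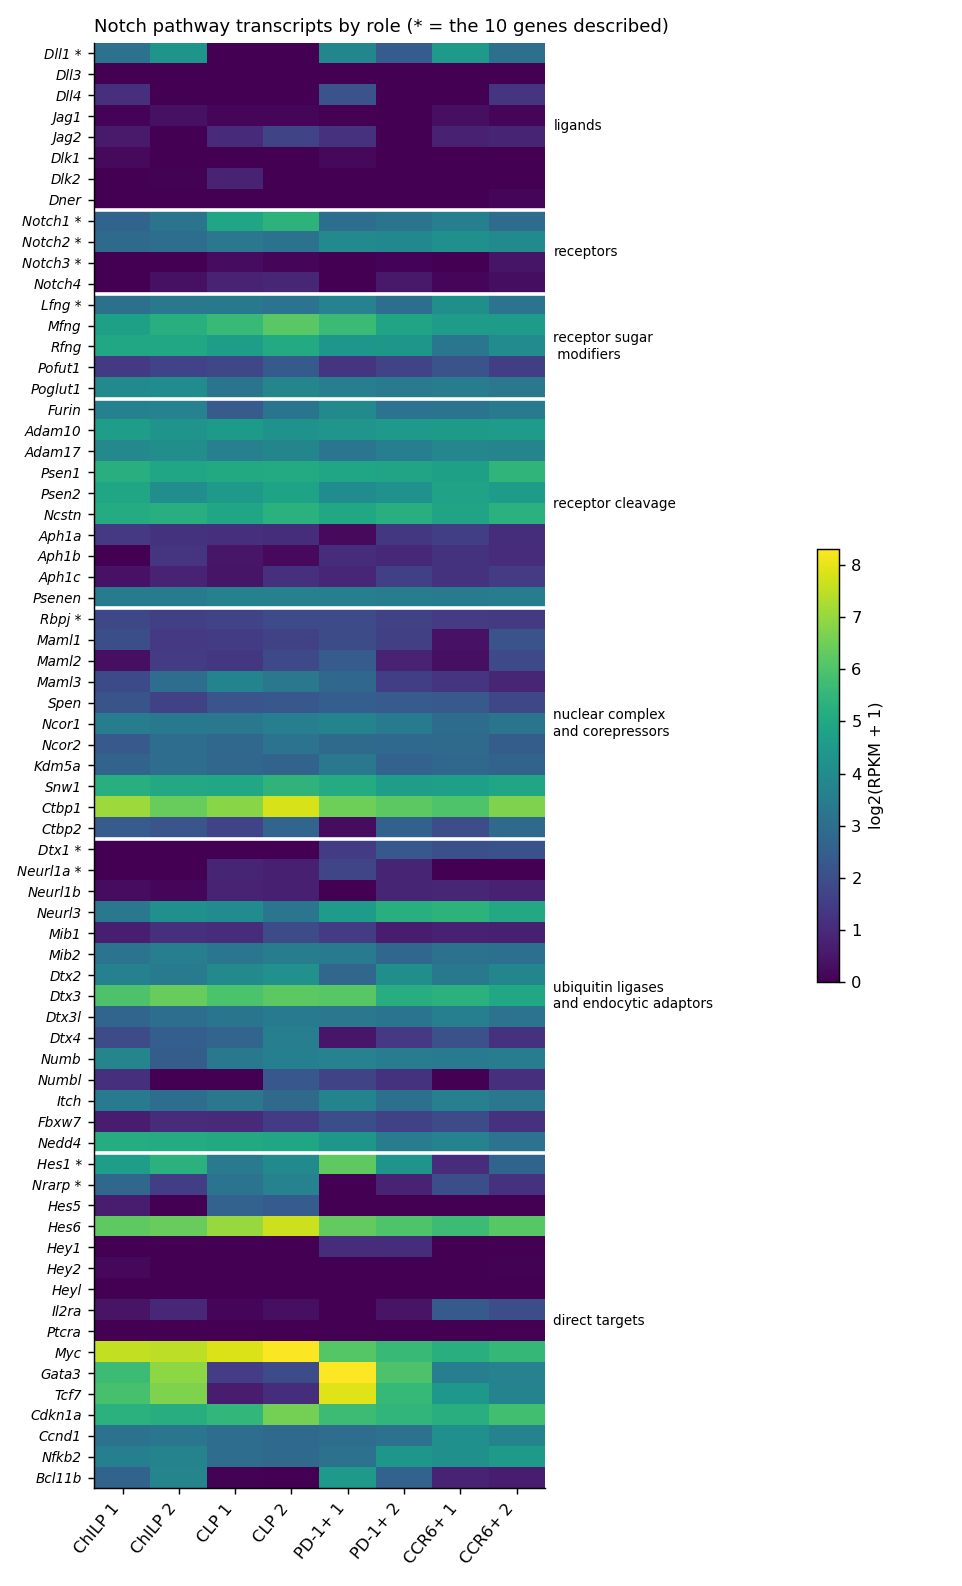
Levels of all 69 pathway genes, the 10 described genes among them, as log2(RPKM + 1) by library (columns) and gene (rows, grouped by role). Dll1 is the brightest ligand in each library other than those of CLP, Notch1 is brightest in CLP, and Gata3, Tcf7 and Bcl11b are darkest in CLP.

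Genes patterned like Notch1 and Dll1 were ranked by Pearson's r of log2(RPKM + 1) over the 8 libraries, among 8953 tested genes with a group mean of at least 5 RPKM. The points share groups, depth and route of enrichment, so r is a description. Closest to Notch1 were Hhex (r = 0.972), a homeobox factor of early lymphoid cells, Atp13a2 (0.966), Esr1 (0.966), the oestrogen receptor α, Gm5111 (0.963) and Gfra1 (0.962). Hhex had 24.4 and 34.5 RPKM in ChILP, 57.9 and 64.6 in CLP, 26.8 and 28.1 in PD-1+ libraries and 36.8 and 32.4 in CCR6+ libraries. Among the 5 closest to Dll1 were Tec (r = 0.976), a tyrosine kinase, Bik (0.972), a death-promoting BCL-2 relative, Chad (0.969) and Mif4gd (0.961). Bik had 4.35 and 7.76 RPKM in ChILP, 0.198 and 0 in CLP, 10.1 and 1.37 in PD-1+ libraries and 11.2 and 4.44 in CCR6+ libraries. Like Dll1 it was higher in ChILP replicate 2, PD-1+ replicate 1 and CCR6+ replicate 1 than in their partners.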

How the data were processed

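RNA of sorted cells was made into Smart-seq2 libraries and sequenced as 50 bp reads, per the labels' protocols. Tools named in the submitters' processing notes are Bowtie2 2.2.2 and CASAVA 1.8.4, and the build is mm9. No source used here gives the counter, its strand setting or the annotation. The authors deposited, per library, a whole-number read count and an RPKM value for each of 29257 RefSeq transcripts (22878 symbols). In the deposited tables RPKM equals the count over length and over a single library total. Amplified reads carry no molecular identifiers here, so intervals and floors cover counting error only. Library totals on genes were 7685188 to 13997897.

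Groups came from the labels. Counts of 1 transcript per gene went into edgeR 4.0.16 (R 4.3.3; TMM; low counts removed by filterByExpr at 10; two-sided quasi-likelihood F test in its robust form; all 4 groups in 1 fit; Benjamini-Hochberg over 13619 genes, threshold 0.05). The common biological coefficient of variation was 0.526. The fit was also run on counts simulated from its own model with known changes. That checks the code and not whether the model holds for these libraries. Where a group had no read, folds are bounds against 3 reads over the group, on TMM-scaled totals; SD and means are of RPKM. The 10 genes and all lists were chosen with earlier results of these data known. Named were the 10 genes, up to 4 list genes per comparison and direction with the largest fold change (group mean of at least 5 RPKM, no overlap), and the 5 genes most like Notch1 and Dll1, of which 1 is not reported here. Alternatives were DESeq2 1.42.0, its size factors, limma 3.58.1 on log2(RPKM + 1) and log2(RPKM + 0.1), no filter, at least 5 RPKM in 2 libraries, the 4 libraries compared alone, a replicate block, the longest transcript and leaving out each library.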

Additional observations from a re-analysis of the deposited data

How the results depend on the processing

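Of all genes, 3 were called between ChILP and CLP. The count was 0 with DESeq2 size factors, 263 with the DESeq2 Wald test, 55 and 46 with limma on log2(RPKM + 1) and log2(RPKM + 0.1), 63 with no filter, 15 with at least 5 RPKM in 2 libraries, 59 with only the 4 libraries compared, and 0 to 24 leaving out 1 library in turn. Of the 52 listed pathway genes, 0 were called, against 4 with DESeq2, 2 and 3 with limma at the larger and smaller pseudocount, 2 with at least 5 RPKM, 3 with only the 4 libraries and 0 to 3 leaving out 1 library. Between PD-1+ and CCR6+ cells 0 genes were called, against 131 with DESeq2, 2 with limma on log2(RPKM + 1) and 0 to 36 leaving out 1 library; for pathway genes these counts were 0, 3 with DESeq2 and 0 to 3. The causes were not tested. The libraries' numbers do not pair them by the labels, and deviations of same-numbered libraries correlated at 0.094 and 0.080 over genes; with a replicate block the count was 0 in both comparisons. For PD-1+ over CCR6+, leaving out 1 library in turn, the log2 fold change ran from -0.61 to 0.13 for Notch1, -1.75 to 0.15 for Dll1 and -0.91 to 0.18 for Lfng (each reversed without CCR6+ replicate 1), -7.66 to 5.24 for Notch3 (reversed without CCR6+ replicate 2) and -1.02 to 0.27 for Dtx1 (reversed without PD-1+ replicate 1). With 2 libraries per group, differences within the spread between libraries were not detectable.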

Other observations

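Some further pathway genes differed without overlap between the capture and the depletion libraries. Route of enrichment and population cannot be told apart in this arrangement. Neurl3, a neuralized relative, had 8.97 and 17.1 RPKM in ChILP, 15.2 and 8.62 in CLP, 23.1 and 36.5 in PD-1+ libraries and 40.5 and 31.0 in CCR6+ libraries. Myc, a growth-driving transcription factor that Notch1 activates in T cell leukaemia, had 188 and 177 RPKM in ChILP, 234 and 309 in CLP, 69.1 and 47.4 in PD-1+ libraries and 35.7 and 45.0 in CCR6+ libraries. Nedd4, a ubiquitin ligase, had 34.1 and 33.2 RPKM in ChILP, 32.1 and 28.6 in CLP, 19.9 and 10.3 in PD-1+ libraries and 11.9 and 8.02 in CCR6+ libraries. Of all tested genes, 9.05% were higher and 22.5% were lower in the 4 capture libraries than in the 4 depletion libraries without overlap. These 3 genes were chosen after their values were seen.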
